A study of Mus musculus with 58 samples.

Results

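Lithium was compared with vehicle in the prefrontal cortex of young mice of the Kmt5b genotype labelled Heterozygous, here HT, by stranded poly(A) RNA sequencing. The comparison takes every library labelled HT and lithium, 10 in all with 5 from females and 5 from males, against every library labelled HT and vehicle, again 5 from females and 5 from males. These 20 libraries are part of a series of 58, and every gene with a mean of at least 10 over the series was tested, 16669 of the 18088 in the table. All mice were of strain C57BL/6J and got their drug or vehicle through maternal milk for 3 weeks, from postnatal day 3 to 24, and cortex was taken on postnatal day 25. The same treatments had been given to Wildtype mice, here WT, with 8 lithium and 10 vehicle libraries, and 10 HT libraries came from mice given fluoxetine, a serotonin reuptake inhibitor. The labels name neither the Kmt5b allele, the dose, nor the litter. Pups nursed by 1 mother share what reaches them in the milk, so p values measure only the spread between these samples.

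Kmt5b encodes a methyltransferase that adds methyl groups to lysine 20 of histone H4. Lithium is a mood stabiliser that inhibits glycogen synthase kinase 3, the kinase that marks β-catenin for destruction, and inositol monophosphatase, which returns inositol to the phosphoinositide cycle. β-Catenin that escapes destruction enters the nucleus and, with TCF and LEF factors, switches on Wnt target genes. Glucocorticoids, the adrenal stress hormones, act in the same tissue through a nuclear receptor that binds DNA and switches on its own set of genes.

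Values are normalised counts, that is, the reads of a gene after scaling each library by its size factor, and differences are HT lithium minus HT vehicle on the log2(value + 1) scale, which understates the change of low genes; a fold is 2 to the power of that fitted difference, not a ratio of means. Library depth was 23.5 to 29.0 M reads in HT lithium and 24.2 to 34.03 M in HT vehicle, where M stands for 1e6. The 29.0 M is an estimate for HT lithium male 3, in which it could not be decided whether whole reads were recovered. The level of 4 olfactory bulb markers, given as their mean log2 value relative to all 58 libraries, was -3.61, -3.40 and -3.76 in HT lithium female 4, male 1 and male 3. It lay between 0.604 and 1.70 in the other 7 HT lithium libraries and between -0.601 and 2.0 in HT vehicle. The slope of expression on exon length, a measure that moves with RNA quality and library preparation, ran from -0.0255 to 0.0317 in HT lithium and from -0.0772 to 0.0150 in HT vehicle, and was lowest in HT vehicle female 1, female 2, male 4 and male 5. These 3 lithium and these 4 vehicle libraries stand apart, so counts of lithium against vehicle below are in many lists also given without the 3 or without the 4. A leave-out count that is not given can differ from the main count too.

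**Figure D1:**
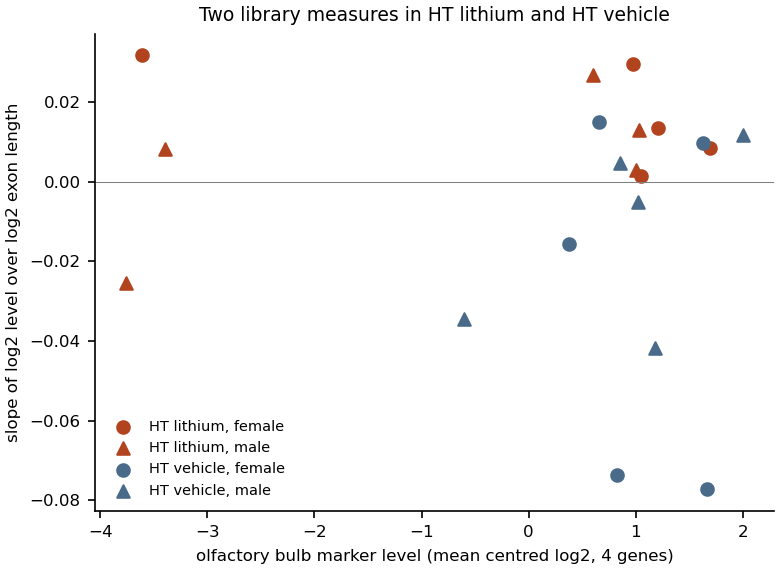
Olfactory bulb marker level (x axis, mean centred log2 value of 4 genes) and slope of log2 level over log2 exon length (y axis), with 1 point per HT lithium or HT vehicle library, circles for females and triangles for males. The 3 HT lithium libraries at -3.61, -3.40 and -3.76 lie far to the left of all others, and 4 HT vehicle libraries lie lowest.

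Kmt5b itself did not pass the test between HT lithium and HT vehicle. Its lowest, median and highest normalised counts were 1573, 1759.8 and 1845 in HT lithium, against 1576, 1697 and 1831 in HT vehicle, and the ranges overlap almost wholly. The difference was 0.03 (SE 0.0427, adjusted p = 0.682), with a 95% interval from -0.06 to 0.12. Kmt5b averaged 1744 ± 73.8 in HT lithium, 1749.5 ± 128 in HT fluoxetine and 1709 ± 90.2 in HT vehicle (SD, n = 10 each), against 1592 ± 132 in WT lithium (n = 8) and 1616 ± 119 in WT vehicle (n = 10). The means of libraries labelled HT were thus no lower than those of libraries labelled WT: HT minus WT was 0.13 under lithium (SE 0.0453, adjusted p = 0.27) and 0.08 under vehicle (SE 0.0427, adjusted p = 0.435). In all that follows, HT and WT are names of labels. Which part of the gene the allele affects is not given, so these counts do not check the labels if transcript from the altered allele is still counted.

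Lithium was associated with many small differences in HT cortex. Of the 16669 genes tested, 1244 were higher (7.46%) and 1101 lower (6.61%) at an adjusted p under 0.05, and 4927 had an unadjusted p under 0.05. Together these are 14.1% of genes, the share against which each list below is read. The lists were chosen with earlier results of these data known, so a share above 14.1% is a description and no test. The median absolute difference of the 2345 genes that passed was 0.20, and 151 of them differed by more than 1.5-fold, 95 higher and 56 lower. In 2341 of the 2345, females and males gave the same sign. This is no replication between the sexes, since the genes were called on the mean of both. In 117 genes (0.702%) the 10 HT lithium and 10 HT vehicle libraries did not overlap at all, 72 of them higher (0.432%) and 45 lower (0.27%). Predicted genes and pseudogenes made up 237 of the genes that passed. In bulk tissue, fewer cells of a type and less RNA per cell cannot be told apart, for any gene below.

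Leaving out the 3 lithium libraries low in olfactory bulb markers gave 965 higher (5.79%) and 865 lower (5.19%) genes, and 1617 of these 1830 had also passed with them. Leaving out the 4 vehicle libraries of lowest exon length slope gave 500 higher (3%) and 394 lower (2.36%), of which 805 had passed before. With the slope as a covariate 836 were higher (5.02%) and 851 lower (5.11%), and with the olfactory bulb marker level as a covariate 1597 and 1589. All 30 genes with the smallest p that are described next passed without the 3 and without the 4 libraries.

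**Figure D2:**
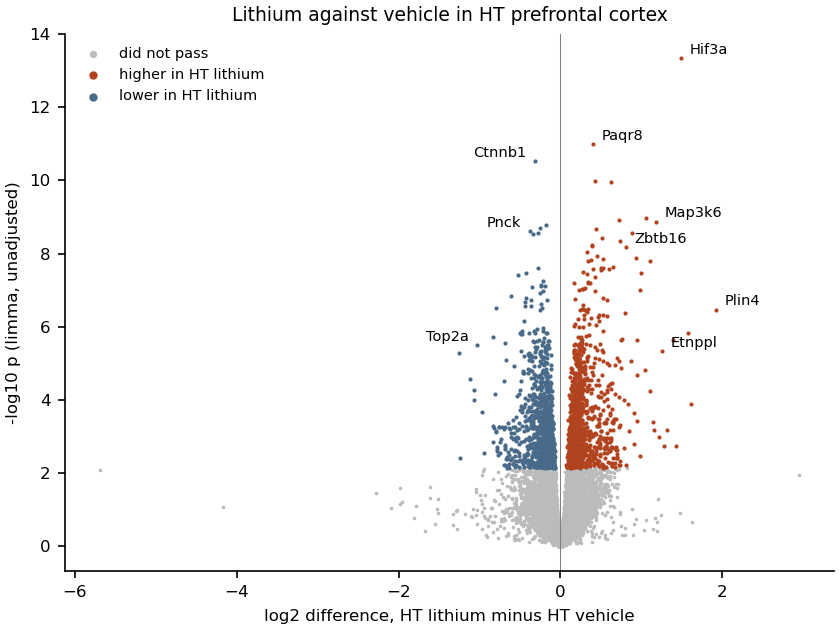
Log2 difference of HT lithium minus HT vehicle (x axis) against the -log10 of the unadjusted p (y axis) for the 16669 genes tested, with coloured points for the 1244 higher and 1101 lower genes that passed. Hif3a has the smallest p, and Ctnnb1 has the smallest p among the lower genes.

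The clearest rise was in Hif3a (ENSMUSG00000004328, chr7:17031507-17062427 in GRCm38), a hypoxia-inducible factor subunit that glucocorticoids are known to induce. Its lowest, median and highest normalised counts were 309.5, 396 and 473 in HT lithium, against 104, 129 and 219 in HT vehicle. Every lithium library lay above every vehicle library, and the group means were 394 ± 47.1 and 144 ± 41.9 (SD, n = 10 each) in HT lithium and HT vehicle. The fitted log2 difference was 1.49 (SE 0.145, adjusted p = 7.63e-10), which is 2.81-fold.

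Both membrane progestin receptors among the leading genes rose. Paqr8 (ENSMUSG00000025931, chr1:20890606-20939650) had 3784, 4208 and 4554 as its lowest, median and highest in HT lithium, against 2904, 3125 and 3388 in HT vehicle, a difference of 0.41 (SE 0.0466, adjusted p = 8.32e-08). Paqr5 (ENSMUSG00000032278, chr9:61953481-62026856) had 113, 141 and 175 in HT lithium, against 52.96, 65.5 and 83.1 in HT vehicle, a difference of 1.06 (SE 0.142, adjusted p = 2.79e-06). In neither gene did the groups overlap, and the folds were 1.33 for Paqr8 and 2.08 for Paqr5.

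Sphingolipid enzymes were among the leading genes too. Sgms1 (ENSMUSG00000040451, chr19:32122727-32389714), which makes sphingomyelin from ceramide, had 1045, 1179.5 and 1239 in HT lithium, against 813, 856 and 949 in HT vehicle (lowest, median and highest), and rose by 0.43 (SE 0.0528, adjusted p = 3.73e-07). The alkaline ceramidase Acer2 had 165, 199 and 279 in HT lithium, against 86.1, 126 and 162 in HT vehicle, and rose by 0.74 (SE 0.105, adjusted p = 4.32e-06). All lithium libraries lay above all vehicle libraries for both enzymes.

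A pair of receptors with roles in glia and immune signalling rose without overlap. Mertk (ENSMUSG00000014361, chr2:128698956-128802894), a receptor tyrosine kinase with which astrocytes and microglia engulf debris, had 1242, 1463 and 1674 in HT lithium, against 869.5, 943 and 1069.6 in HT vehicle, a 1.54-fold difference of 0.62 (SE 0.0773, adjusted p = 3.73e-07). Il1r1 (ENSMUSG00000026072, chr1:40225080-40317257), the signalling receptor of interleukin 1, had 184, 220.2 and 262 in HT lithium, against 110.2, 131 and 168 in HT vehicle, a 1.65-fold difference of 0.72 (SE 0.0972, adjusted p = 2.79e-06). The other 8 of the 15 higher genes with the smallest p were Map3k6, Nr6a1, Smim3, Sntb2, Usp53, Banp, Zbtb16 and Tmc7, with differences from 0.33 for Tmc7 to 1.18 for Map3k6. Of these, only in Banp did a lithium library fall within the vehicle range, 9 of its 10 lying above the highest.

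**Figure D3:**
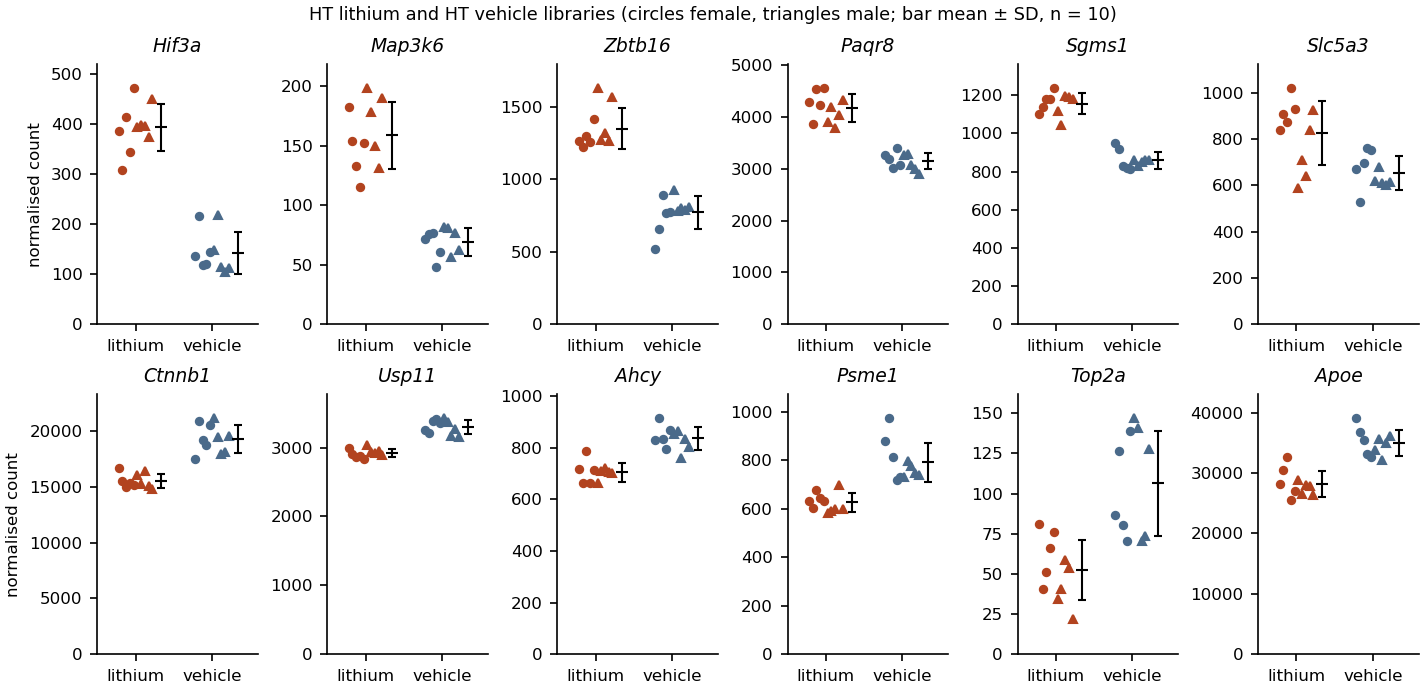
Normalised counts of 6 higher genes (top) and 6 lower genes (bottom), with 1 point per library, HT lithium left of HT vehicle, circles for females, triangles for males and bars for mean ± SD (n = 10). Hif3a, Map3k6, Zbtb16, Paqr8, Sgms1, Ctnnb1, Usp11 and Psme1 show no overlap between the groups, and Slc5a3, Ahcy, Top2a and Apoe show some.

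The gene of lowest p among those that fell was Ctnnb1 (ENSMUSG00000006932, chr9:120929216-120960507), which encodes β-catenin, the effector of canonical Wnt signalling. It had 14788, 15299 and 16734 normalised counts in HT lithium, against 17564, 19345 and 21235 in HT vehicle (lowest, median and highest). The highest lithium library lay below the lowest vehicle library, and the difference was -0.31 (SE 0.0372, adjusted p = 1.66e-07), 1.24-fold lower. Frat1, whose protein binds and inhibits glycogen synthase kinase 3, was looked up after its values were seen. It had 138, 155 and 204 in HT lithium, against 217, 246 and 284 in HT vehicle, without overlap, a difference of -0.61 (SE 0.1, adjusted p = 4.09e-05).

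Among the lower genes were also enzymes and regulators of protein turnover. Usp11 (ENSMUSG00000031066, chrX:20703906-20720539), a deubiquitinase, had 2828, 2917 and 3035 in HT lithium, against 3155, 3316 and 3435 in HT vehicle, a fall of only 1.13-fold but with no overlap (-0.18, SE 0.0241, adjusted p = 2.97e-06). Psme1 (ENSMUSG00000022216, chr14:55578123-55581529), a subunit of the PA28 proteasome activator, had 584, 618 and 697 in HT lithium, against 721, 763 and 977 in HT vehicle (-0.33, SE 0.0465, adjusted p = 3.18e-06). Of the 37 proteasome subunits tested, 4 were lower and the rest did not pass, a share of 10.8% against 14.1% of all genes. Without the 3 lithium libraries 3 were lower, without the 4 vehicle libraries 1 was higher and no call of a fall was left, and with the slope as a covariate 2 were higher and 1 lower.

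Ahcy (ENSMUSG00000027597, chr2:155059310-155074497), the enzyme that clears S-adenosylhomocysteine, the product and inhibitor of methyltransferases, had 662, 709 and 786 in HT lithium, against 760.4, 834 and 918 in HT vehicle. In 9 of 10 lithium libraries it lay below the lowest vehicle library, and it fell by 0.25 on the log2 scale (SE 0.0338, adjusted p = 3.16e-06). Pnck (ENSMUSG00000002012, chrX:73655994-73660117), a calcium/calmodulin-dependent kinase, had 1078, 1203 and 1339 in HT lithium, against 1397, 1526 and 1959.7 in HT vehicle (-0.38, SE 0.0524, adjusted p = 3.18e-06). Vgll4 (ENSMUSG00000030315, chr6:114860628-114969994), a cofactor of TEAD transcription factors, had 563, 595 and 648 in HT lithium, against 679, 708 and 784 in HT vehicle (-0.28, SE 0.0391, adjusted p = 3.18e-06). Neither Pnck nor Vgll4 overlapped between groups. The other 9 of the 15 were Tmem130, Hunk, Vegfc, Fads2, Pqbp1, Cyb5r3, Zfp316, Lxn and Ppp1r21, lower by 1.14-fold for Cyb5r3 to 1.44-fold for the lymphangiogenic growth factor Vegfc.

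By size, the largest rises among genes with a mean of at least 50 included Hif3a, Map3k6, Paqr5, Etnppl and Pkp2. Etnppl, an astrocyte enzyme that breaks down phosphoethanolamine, had 329, 462 and 985 in HT lithium, against 122, 198 and 574 in HT vehicle, a 2.39-fold rise with overlapping ranges (1.26, SE 0.245, adjusted p = 0.000458). The desmosomal plaque gene Pkp2 had 139, 206 and 284 in HT lithium, against 81.9, 102 and 137 in HT vehicle, without overlap (1.0, SE 0.154, adjusted p = 1.54e-05). The largest falls included 3 genes of dividing cells, described below, together with Aplnr, the apelin receptor (-0.70, SE 0.193, adjusted p = 0.0107), and Nfe2l3, a transcription factor of the NRF family (-0.68, SE 0.13, adjusted p = 0.000356).

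Many genes that glucocorticoids switch on rose, while the receptor gene did not pass. Of 24 glucocorticoid receptor and responsive genes tested, 10 were higher and 14 did not pass, and their median difference was 0.09, against -0.0015 over all genes tested. The lipid droplet gene Plin4 had 16.3, 36.5 and 63.8 in HT lithium, against 3.63, 9.03 and 12.9 in HT vehicle, so that its lowest lithium library lay above its highest vehicle library, a 3.8-fold rise (1.93, SE 0.329, adjusted p = 7.53e-05). Map3k6, a stress kinase (ENSMUSG00000028862, chr4:133240818-133252929), averaged 159 ± 27.8 in HT lithium and 69.2 ± 11.4 in HT vehicle (SD, n = 10 each), a difference of 1.18 (SE 0.16, adjusted p = 2.79e-06).

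The sulfotransferase Sult1a1 had 237, 373 and 435 in HT lithium, against 122, 180.4 and 278 in HT vehicle (0.94, SE 0.139, adjusted p = 9.63e-06). Zbtb16, the transcription factor PLZF, had 1220.0, 1282 and 1629 in HT lithium, against 517, 782 and 922 in HT vehicle (0.82, SE 0.117, adjusted p = 5.5e-06). Its groups did not overlap, while those of Sult1a1 overlapped slightly. The textbook markers Fkbp5, the receptor's own co-chaperone, and Tsc22d3, which encodes the glucocorticoid-induced leucine zipper, were looked up after their values were seen. Fkbp5 was higher by 0.71 (SE 0.141, adjusted p = 0.000576) and Tsc22d3 by 0.52 (SE 0.0957, adjusted p = 0.000218). The receptor gene Nr3c1 differed by 0.02 and the responsive genes Sgk1, Per1 and Mt1 by 0.09, 0.07 and 0.09, none of which passed. Each leave-out, of the 3 lithium and of the 4 vehicle libraries, kept 9 of the 10; the one lost in both was Lcn2 (1.29), named here after its values were seen.

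The palindrome bound by the glucocorticoid receptor, written GNACANNNTGTNC, was searched in windows from 250 bases before to 50 after the gene start in RefSeq (build GRCm38.p6). It was found in 3 of the 21 listed genes that had a window (14.3%), Map3k6, Sgk1 and Mt1, and in 50 of 12099 genes with a window (0.413%). Of these, only Map3k6 passed. Its window, at chr4:133240568-133240867 on the plus strand, is shown with the match in capitals, since it is the leading gene of the list that holds one; the match begins 181 bases before the gene start.
Map3k6: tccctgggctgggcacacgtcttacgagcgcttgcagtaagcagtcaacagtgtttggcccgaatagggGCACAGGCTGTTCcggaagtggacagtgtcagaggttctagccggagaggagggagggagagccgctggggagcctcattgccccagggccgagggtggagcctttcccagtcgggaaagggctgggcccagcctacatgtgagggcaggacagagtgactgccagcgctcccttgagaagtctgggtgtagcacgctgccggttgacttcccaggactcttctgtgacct

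The genes of the proteins that lithium inhibits showed small differences in both directions. Of 9 genes for glycogen synthase kinase 3 and lithium-inhibited phosphatases, 2 were higher, 1 was lower and 6 did not pass, so 33.3% passed, against 14.1% of all genes. Impa1, an inositol monophosphatase, had 1776, 2003 and 2171 in HT lithium, against 1596, 1808 and 2075 in HT vehicle, with wide overlap (0.14, SE 0.0383, adjusted p = 0.0125). Impad1, a phosphatase of the same family, was higher by 0.15 (SE 0.0498, adjusted p = 0.0351), and the phosphoglucomutase Pgm1 was lower (-0.09, SE 0.0285, adjusted p = 0.0249). The kinase genes did not pass: Gsk3b differed by 0.09 (SE 0.0401, adjusted p = 0.106) and Gsk3a, looked up after its values were seen, by -0.06 (adjusted p = 0.391). Impad1 and Pgm1 did not pass without the 4 vehicle libraries, and 2 of the 9 were higher and 2 lower without the 3 lithium libraries.

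Of 27 genes for inositol synthesis, uptake and phosphoinositide signalling, 2 were higher and 1 lower (11.1%, against 14.1% of all genes), with a median of -0.00. Slc5a3, the sodium-coupled transporter that brings inositol into cells, had 589, 857 and 1021 in HT lithium, against 529, 644 and 763 in HT vehicle, a 1.26-fold rise (0.33, SE 0.0659, adjusted p = 0.00058). Its ranges overlap, and it passed without the 3 and without the 4 libraries. Plcb1 (0.15, adjusted p = 0.0398) and Plcb3 (-0.15, adjusted p = 0.0487), which encode phospholipases that cut phosphoinositides, passed in opposite directions and in neither leave-out.

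Most members that passed in the list of β-catenin and Wnt feedback genes were lower, Ctnnb1 itself included. Of 24 β-catenin and Wnt feedback genes tested, 1 was higher, 5 were lower and 18 did not pass, with a median of -0.17; 25.0% passed, against 14.1% of all genes. The 5 lower genes were Ctnnb1, Myc, Nkd1, Sfrp1 and Tcf7l1, and the higher one was Znrf3, which removes Wnt receptors from the membrane. Myc, a growth-promoting transcription factor and Wnt target, had 66.2, 92.2 and 118 in HT lithium, against 98.2, 117 and 121 in HT vehicle (-0.32, SE 0.0903, adjusted p = 0.013). Axin2, the most used readout of canonical Wnt signalling, was looked up after its values were seen and had 709.9, 840.3 and 963 in HT lithium, against 771, 857 and 920.0 in HT vehicle. Its difference of -0.04 (SE 0.0466, adjusted p = 0.655) did not pass. With the 3 lithium libraries left out 3 of the 24 were lower, Ctnnb1, Myc and Nkd1, and with the 4 vehicle libraries left out only Ctnnb1 was.

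Genes of dividing cells were lower wherever they passed. Of 31 cell cycle genes tested, 13 were lower and the rest did not pass, with a median of -0.30. Top2a, the topoisomerase of replicating cells, had 22.1, 52.7 and 81.3 in HT lithium, against 70.2, 107 and 147 in HT vehicle, 2.05-fold lower (-1.03, SE 0.197, adjusted p = 0.000369). Mki67, the proliferation marker Ki-67, had 34.8, 76.8 and 112 in HT lithium, against 82.2, 119 and 195 in HT vehicle (-0.81, SE 0.187, adjusted p = 0.00256). In Top2a 8 of the 10 lithium libraries lay below the lowest vehicle library, and in Mki67 6 did.

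The replicative helicase subunit Mcm6 had 129, 186 and 214 in HT lithium, against 226, 235 and 260.2 in HT vehicle, with no overlap (-0.45, SE 0.0899, adjusted p = 0.000552). The mitotic kinase gene Cdk1 had 8.19, 18.7 and 27.9 in HT lithium, against 20.6, 31.6 and 39.4 in HT vehicle (-0.76, SE 0.207, adjusted p = 0.00979). Summed over the 31 genes, the normalised counts lay between 2963 and 3424 in HT lithium and between 3444 and 4241 in HT vehicle, so the ranges of the sums do not overlap. Leaving out the 3 lithium libraries left 10 lower, and leaving out the 4 vehicle libraries left 5; Bub1b, a spindle checkpoint kinase (-0.68, SE 0.207, adjusted p = 0.021), passed in neither. Of 12 oligodendrocyte precursor markers, the cell type that still divides in young cortex, 1 was lower (8.33%).

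The hexamer TTTGAA, the cell cycle homology region of genes that peak in late phases of the cycle, was found on either strand in 15 of 26 listed genes with a window (57.7%) and in 1753 of 12099 genes (14.5%). Windows of 3 members that passed are shown, from 250 bases before to 50 after the RefSeq gene start in GRCm38.p6, each with 2 matches in capitals and all on the minus strand of the genome. A match is a string of letters and no evidence of a bound factor. The windows lie at chr11:99024140-99024439 for Top2a, chr7:135716330-135716629 for Mki67 and chr10:69352863-69353162 for Cdk1, where the first matches begin 179, 116 and 71 bases before the gene start.
Top2a: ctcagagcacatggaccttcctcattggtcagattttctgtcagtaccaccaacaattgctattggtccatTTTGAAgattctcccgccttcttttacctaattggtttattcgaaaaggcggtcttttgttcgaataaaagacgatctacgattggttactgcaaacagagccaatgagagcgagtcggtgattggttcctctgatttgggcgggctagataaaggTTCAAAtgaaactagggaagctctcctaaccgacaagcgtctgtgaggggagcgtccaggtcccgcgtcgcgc
Mki67: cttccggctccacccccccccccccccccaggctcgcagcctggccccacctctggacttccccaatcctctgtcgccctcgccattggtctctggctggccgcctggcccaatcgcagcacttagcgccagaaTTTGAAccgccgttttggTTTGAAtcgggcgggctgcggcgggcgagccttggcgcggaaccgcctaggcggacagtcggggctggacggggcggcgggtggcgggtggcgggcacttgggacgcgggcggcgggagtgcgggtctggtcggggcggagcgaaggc
Cdk1: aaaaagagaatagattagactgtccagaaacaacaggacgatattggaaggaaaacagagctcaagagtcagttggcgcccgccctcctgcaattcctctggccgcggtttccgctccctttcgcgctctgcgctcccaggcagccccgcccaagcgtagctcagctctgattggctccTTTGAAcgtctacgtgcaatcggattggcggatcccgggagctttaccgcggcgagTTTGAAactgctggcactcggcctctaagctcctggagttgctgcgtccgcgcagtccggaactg

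Nearly all sterol genes that passed were lower. Of 21 cholesterol biosynthesis enzymes tested, 9 were lower and 1 was higher, with a median of -0.12, and of 20 genes for sterol sensing and transport, 6 were lower and the rest did not pass, with a median of -0.06. The isoprenoid synthase Fdps had 950.1, 1073 and 1159 in HT lithium, against 1130.5, 1257 and 1571 in HT vehicle (-0.24, SE 0.0512, adjusted p = 0.00132). The squalene enzymes were lower too, Fdft1 (-0.22, adjusted p = 0.00412) and Sqle (-0.19, adjusted p = 0.0047). Ggps1, which diverts isoprenoids away from sterols, was the higher one (0.17, adjusted p = 0.00631).

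The cholesterol carrier Apoe had 25532, 28011 and 32656 in HT lithium, against 32098, 35244 and 39173 in HT vehicle, and 9 of the 10 lithium libraries lay below the lowest vehicle library (-0.31, SE 0.0575, adjusted p = 0.000234). The regulators of both lists were lower too, Srebf2 (-0.18, adjusted p = 0.00113) and Srebf1 (-0.24, adjusted p = 0.0159). When the 3 lithium libraries were left out, 9 enzymes and 5 sensing and transport genes were lower, and when the 4 vehicle libraries were, 4 and 3. A core of the sterol regulatory element, TCACNCCAC, was found in the window of 1 of 16 enzymes (6.25%), and of 0 of 14 sensing and transport genes (0%), against 167 of 12099 genes (1.38%).

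Genes of glucose entry and of the p53 response were among those that rose. Slc2a1, the glucose transporter of the blood-brain barrier and astrocytes, had 3174, 4021 and 4333 in HT lithium, against 2300.5, 2656 and 2966 in HT vehicle, with no overlap (0.53, SE 0.0803, adjusted p = 1.34e-05). Pfkfb3, which makes the main activator of glycolysis, had 1106, 1162 and 1342 in HT lithium, against 792, 905 and 1012 in HT vehicle, again with no overlap (0.40, SE 0.0613, adjusted p = 1.37e-05). These belong to a list of 25 hypoxia and glycolysis genes in which 3 were higher, Hif3a included, and 2 lower, with a median of -0.02. The 2 lower ones were the glycolytic enzymes Eno1 (-0.12, adjusted p = 0.0262) and Aldoa (-0.16, adjusted p = 0.0307), which did not pass without the 4 vehicle libraries. With the slope as a covariate 5 were higher and no call of a fall was left. Of the 25, 20% passed, against 14.1% of all genes.

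Of 19 p53 target genes, 4 were higher and 1 lower, with a median of 0.06. The death receptor Fas had 40.6, 54.7 and 70.8 in HT lithium, against 19.4, 24.4 and 43.7 in HT vehicle (0.95, SE 0.178, adjusted p = 0.000319). In 8 of the 10 lithium libraries Fas lay above the highest vehicle library. Trp53inp1, a cofactor of p53, was higher by 0.52 (SE 0.101, adjusted p = 0.000449), cyclin G1, Ccng1, by 0.17 (adjusted p = 0.00374) and Mdm2, the ligase that degrades p53, by 0.10 (adjusted p = 0.0275), while Bbc3, which encodes the death effector PUMA, was lower (-0.34, adjusted p = 0.0203). Without the 4 vehicle libraries, Fas, Trp53inp1 and Ccng1 were higher and Bbc3 did not pass.

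Clock, activity and hormone genes moved in both directions. Of 21 core circadian clock genes, 5 were higher and 1 lower, with a median of 0.07. The clock output factor Hlf had 4566, 5562 and 6359 in HT lithium, against 4281, 4682 and 4945 in HT vehicle (0.26, SE 0.0499, adjusted p = 0.000424), and the period gene Per2 was higher by 0.47 (SE 0.0953, adjusted p = 0.000622). The hour at which tissue was taken is not in the labels. Without the 4 vehicle libraries Hlf and Per2 were the 2 that passed, with the slope as a covariate 2 were higher, and without the 3 lithium libraries 5 were higher and no lower one was left.

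Of 37 activity-regulated immediate early genes, 3 were higher and 4 lower (18.9%, against 14.1% of all genes), with a median of -0.19. Without the 3 lithium libraries 1 was higher and 2 lower, and without the 4 vehicle libraries 1 and 1. The AP-1 subunit Jund had 1662, 2331 and 2729.6 in HT lithium, against 2456, 2967 and 3460.5 in HT vehicle (-0.37, SE 0.0728, adjusted p = 0.000531), with overlap. Homer1, a postsynaptic scaffold whose short form is induced by activity, was higher by 0.38 (SE 0.0928, adjusted p = 0.00472), and Fosb, a Fos family member, was lower (-0.56, SE 0.183, adjusted p = 0.0313). Fosb did not pass in either leave-out.

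Of 26 thyroid hormone pathway and responsive genes, 7 were higher and 3 lower, with a median of -0.04. Klf9, a transcription factor that both thyroid hormone and glucocorticoids induce, had 8124, 8695 and 9580.0 in HT lithium, against 6958, 7519 and 7854 in HT vehicle, without overlap (0.23, SE 0.0449, adjusted p = 0.000448). Thrsp, named for its response to thyroid hormone, was higher by 0.57 (SE 0.13, adjusted p = 0.00215) and the retinaldehyde dehydrogenase Aldh1a1 by 0.42 (SE 0.0844, adjusted p = 0.000576). Flywch2 was lower (-0.49, SE 0.0959, adjusted p = 0.000458). After leaving out the 3 lithium libraries 7 were higher and 2 lower, and after leaving out the 4 vehicle libraries 6 and 2.

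GABA receptor subunit genes rose where they passed. Of 14 tested, 5 were higher and 9 did not pass, with a median of 0.14. Gabra3, the α3 subunit that is abundant in young cortex, had 5061, 5523 and 5957 in HT lithium, against 4181, 4608 and 5657 in HT vehicle (0.23, SE 0.0489, adjusted p = 0.00123), and the others included Gabra4 (0.23, adjusted p = 0.00973), Gabra2 (0.19, adjusted p = 0.0257) and Gabrb1. Of the 5, 3 passed without the 3 lithium libraries and 2, Gabra3 and Gabra4, without the 4 vehicle libraries. With the slope as a covariate 2 of the 14 were higher, with a median of 0.07, and edgeR and DESeq2 called 1 and 2. In WT none of the 14 passed, with a median of -0.04. For the difference between genotypes none passed in limma, with 7 at an unadjusted p under 0.05. Among 24 glutamate receptor genes 1 was higher and 1 lower (8.33%), without the 4 vehicle libraries 2 were lower, and with the slope as a covariate 6 were. Among 28 postsynaptic scaffolds 4 were higher and 1 lower (17.9%), with 3 and 3 without the 3 lithium libraries and 1 and 1 without the 4 vehicle libraries.

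Ribosomal protein genes that passed were lower, with fewer calls once the exon length slope was a covariate, and mitochondrial transcripts that passed were higher. Of 76 cytosolic ribosomal protein genes, 42 were lower and the rest did not pass, with a median of -0.15. Rps26 had 1808, 1965 and 2108 in HT lithium, against 2032, 2311 and 2577 in HT vehicle (-0.26, SE 0.0492, adjusted p = 0.000312). Ribosomal protein transcripts are short, and the mean slope of expression on exon length was 0.011 ± 0.0168 in HT lithium and -0.0207 ± 0.0346 in HT vehicle (SD, n = 10 each). Of the 76, 26 were lower without the 3 lithium libraries, 3 without the 4 vehicle libraries and 9 with the slope as a covariate. The list is also one in which near-identical pseudogenes can take reads.

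Of 15 mitochondrially encoded genes, 5 were higher, with a median of 0.24. In WT limma called none of the 15, with 5 at an unadjusted p under 0.05 and a median of -0.15. For the difference between genotypes none passed in limma, with 11 of the 15 at an unadjusted p under 0.05. mt-Nd6, the only protein gene of the mitochondrial light strand, had 1366, 1604 and 1912 in HT lithium, against 1054, 1334 and 1531 in HT vehicle (0.29, SE 0.0719, adjusted p = 0.00515). Mitochondrially encoded genes took 7.66% ± 0.746 of counts in HT lithium and 6.75% ± 0.66 in HT vehicle (SD, n = 10 each), with ranges that overlap. This share is summed over the same genes, so it is no separate measure of the library. With trimmed-mean scaling (TMM) 6 of the 15 were higher, whereas under quantile normalisation the median was 0.07 and 1 passed. Without the 3 lithium libraries 1 passed, and without the 4 vehicle libraries 3. With the slope as a covariate 5 of the 15 were higher, with a median of 0.25. Of 79 nuclear oxidative phosphorylation subunits, 8 were lower, Ndufv3 among them (-0.21, adjusted p = 0.00343), and the rest did not pass; without the 4 vehicle libraries all 8 missed the threshold, and edgeR and DESeq2 called 0 and 1 of the 79. Their direction turned with the slope as a covariate, where 8 were higher and 1 lower and the median was 0.04, against -0.05 without it; 10.1% of the list had passed, against 14.1% of all genes.

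Genes of the pathway that Kmt5b belongs to passed at about the share of all genes, 14.1%. Of 12 genes of the KMT5 family and readers of H4K20 methylation, 2 were higher (16.7%), with a median of 0.04. Kmt5a, which places the first methyl group on H4K20, had 1315, 1429.6 and 1573 in HT lithium, against 1115, 1257 and 1382 in HT vehicle (0.19, SE 0.0397, adjusted p = 0.00117), and Phf20l1, a reader of methylated lysine, was higher by 0.19 (SE 0.0514, adjusted p = 0.0115). Without the 4 vehicle libraries Kmt5a passed and Phf20l1 did not. Of 21 one-carbon and S-adenosylmethionine genes 19.0% passed: Ahcy was the only lower one and 3 were higher: Ahcyl1 (0.10, adjusted p = 0.00747), Amd1 (0.12, adjusted p = 0.0209) and Mat2a, which makes S-adenosylmethionine (0.17, adjusted p = 0.0211). Without the 4 vehicle libraries 2 of the 21 were higher and 1 lower. Among 46 other histone lysine methyltransferases and demethylases, 4 were higher and 2 lower (13%), with 1 and 2 without the 4 vehicle libraries and 3 and 6 with the slope as a covariate.

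Hardly any neuron markers passed. Of 22 excitatory neuron markers, limma called none, with 1 at an unadjusted p under 0.05 and none by edgeR or DESeq2; their median was 0.03, and of 22 inhibitory neuron markers 1 was higher and 1 lower, with no lower one without the 3 lithium libraries. The summed counts of the excitatory list ranged from 205270 to 268060 in HT lithium and from 192640 to 255270 in HT vehicle. Slc17a7, the vesicular glutamate transporter that defines cortical excitatory neurons, lay between 41319 and 54384 in HT lithium and between 40909 and 52967 in HT vehicle, so this marker was abundant in all 20 libraries. It differed by -0.02 and Gad1, which makes GABA, by -0.12, and neither passed.

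Glial and vascular markers split. In astrocytes Gjb6, the connexin of astrocyte networks, had 1307, 1582 and 1838 in HT lithium, against 923, 1129 and 1276 in HT vehicle, without overlap (0.50, SE 0.0759, adjusted p = 1.34e-05). Sox9, the transcription factor of astrocytes and their precursors, had 348, 469 and 528 in HT lithium, against 526, 586 and 751 in HT vehicle (-0.44, SE 0.0735, adjusted p = 5.46e-05). Of 22 astrocyte markers these and Slc39a12 were the 3 that passed (13.6%, against 14.1% of all genes), and the list's median was -0.03. In each leave-out 1 was higher and 1 lower.

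Of 26 oligodendrocyte and myelin markers, 3 were lower (11.5%, against 14.1% of all genes), with a median of -0.18, and 1 was lower in each leave-out. Among the 3 were Sox10 (-0.36, SE 0.0903, adjusted p = 0.0053) and Nkx6-2. The myelin protein gene Mbp, named for its abundance after its values were seen, differed by -0.15 and did not pass. Of 19 endothelial markers, 2 were higher, among them Mfsd2a, the lipid transporter of the blood-brain barrier (0.28, SE 0.058, adjusted p = 0.00101), and 4 were lower, among them Tek (-0.34, SE 0.0785, adjusted p = 0.0026), Cldn5 (-0.37, adjusted p = 0.00816) and Kdr (-0.42, adjusted p = 0.0099), which encode 2 vascular growth factor receptors and a tight junction protein. The pericyte receptor Pdgfrb had 592, 644 and 706 in HT lithium, against 665, 809 and 889.5 in HT vehicle (-0.29, SE 0.0528, adjusted p = 0.000192). In the mural cell list 2 of 12 markers were lower (16.7%, against 14.1% of all genes), and 1 was without the 3 lithium libraries. Without the 4 vehicle libraries 2 endothelial markers were higher and 2 lower.

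In limma no marker passed in the olfactory bulb list of 17, the striatal list of 16 or the blood cell list of 7, and 0, 2 and 0 of them had an unadjusted p under 0.05; edgeR called none and DESeq2 called 1, in the striatal list. The median of the olfactory bulb list was nevertheless -0.86. Without the 3 lithium libraries, which were set apart by markers of this same list, the median was -0.01. Summed counts of the bulb list were 36523 to 45778 in HT lithium and 41192 to 48760 in HT vehicle. With the marker level as a covariate 10 glucocorticoid genes were higher and 13 cell cycle genes and 45 ribosomal protein genes lower. Of 8 choroid plexus and ependymal markers 1 was higher and of 12 meningeal fibroblast markers 1 was higher, and neither passed in either leave-out. Of 21 microglia markers 2 were lower (9.52%, against 14.1% of all genes), 1 without the 3 lithium libraries and none without the 4 vehicle libraries. With the slope as a covariate 3 were higher and none lower.

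Among the remaining lists, 6 of 45 potassium channels were higher and 2 lower (17.8%, against 14.1% of all genes). These calls were lost without the 4 vehicle libraries, where none of the 45 passed, and without the 3 lithium libraries 2 were higher and 1 lower. Of 25 insulin and FOXO response genes 6 were higher and 3 lower (36%), and without the 4 vehicle libraries 5 were higher and no lower one was left. Of 23 cytosolic heat shock chaperones 3 were higher and 5 lower, with 2 and 2 without the 4 vehicle libraries. Of 24 endoplasmic reticulum chaperones 3 were higher (12.5%), with 1 without the 3 lithium libraries and 4 without the 4 vehicle libraries.

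**Figure D4:**
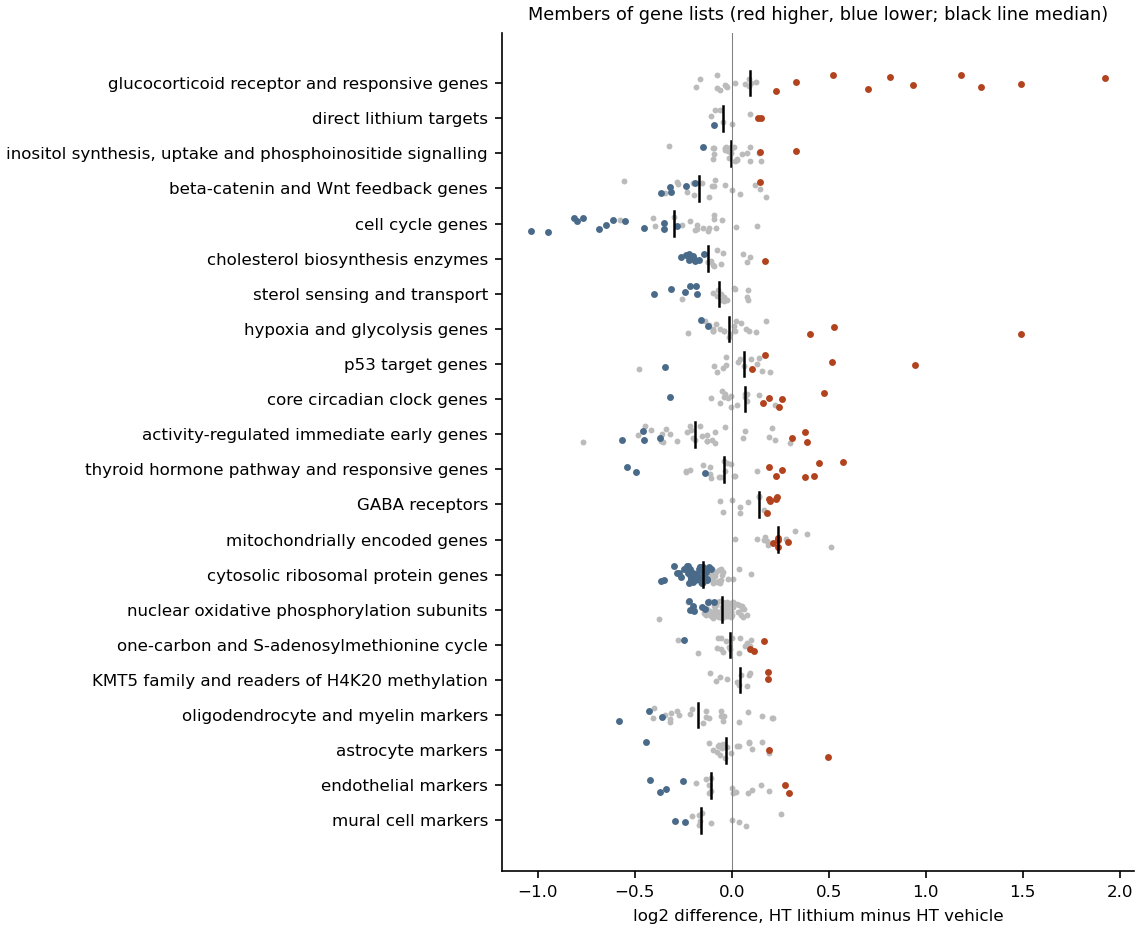
Log2 difference of HT lithium minus HT vehicle (x axis) for each member of 22 gene lists (y axis), with red points for members that passed as higher, blue for those that passed as lower, grey for the rest and a black line at the list's median. Glucocorticoid genes that passed reach up to 1.93, in Plin4, and cell cycle genes that passed reach down to -1.03, in Top2a.

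The same contrast in WT mice, which shares no library with that in HT, called fewer genes. In WT cortex 556 genes passed (3.34%), 325 higher (1.95%) and 231 lower (1.39%), with 8 lithium libraries in place of 10. The WT count rested on single libraries, being 272 without WT lithium female 4, 347 without male 3, 357 without male 4 and at most 771 when any 1 library was left out. Of the genes that passed in either genotype, 260 passed in both, all with one sign, which is 11.1% of the HT calls and 46.8% of the WT calls. Of the 2345 HT calls, 1830 (78.0%) had the same sign in WT, against 59.1% of all genes, and their median difference in WT, taken in the HT direction, was 0.06. Among the genes with the smallest p in HT, 12 of the 15 higher and 10 of the 15 lower passed in WT. Hif3a averaged 338 ± 46.4 in WT lithium (n = 8) and 145 ± 39.5 in WT vehicle (n = 10), a difference of 1.25 (SE 0.153, adjusted p = 7.92e-07).

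The test of the difference between genotypes called no gene in limma (0%), with 2320 genes at an unadjusted p under 0.05 (13.9%), and edgeR and DESeq2 called none. Leaving out WT lithium female 1 gave 31 genes and leaving out WT lithium female 2 gave 37. With all libraries, Slc12a4, a potassium-chloride cotransporter, had the smallest p: its lithium difference was -0.16 in HT and 0.15 in WT, and these differed by -0.31 (SE 0.0632, adjusted p = 0.168). L3mbtl4, a malignant brain tumour domain gene, differed by 0.45 in HT and -0.13 in WT, and the heat shock gene Hspa1a by -0.35 in HT and 0.26 in WT. mt-Nd6 differed by 0.29 in HT and -0.16 in WT. The same adjusted p held for all of these, so none passed.

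Lists can be read side by side in the same way. Of the 24 glucocorticoid genes, 10 passed as higher in HT, against 7 in WT with 1 lower. Among 76 ribosomal protein genes 42 were lower in HT, against 2 in WT, and 28 had an unadjusted p under 0.05 for the difference between genotypes. In the cell cycle list 13 of 31 were lower in HT and none passed in WT in limma, with 7 at an unadjusted p under 0.05, where Top2a differed by -0.14 (adjusted p = 0.815); its difference between genotypes did not pass (adjusted p = 0.211). In the endoplasmic reticulum list 3 of 24 were higher in HT and 12 of 24 in WT. No difference between genotypes passed in that list, and 10 of the 24 had an unadjusted p under 0.05 for it.

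**Figure D5:**
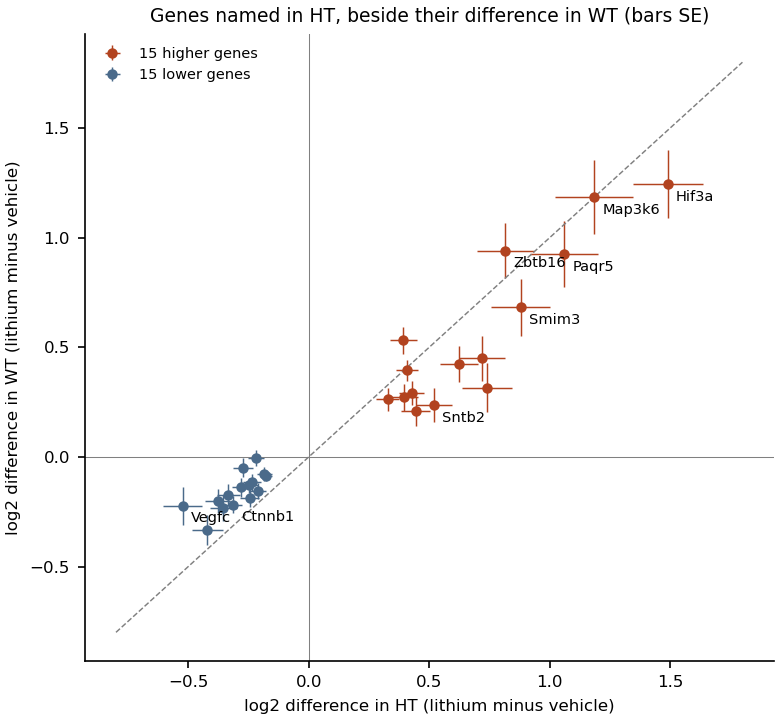
Log2 difference of lithium minus vehicle in HT (x axis) and in WT (y axis) for the 15 higher and 15 lower genes with the smallest p in HT, with bars for the SE and a dashed line where both are equal. Hif3a lies at 1.49 in HT and 1.25 in WT, and Ctnnb1 at -0.31 in HT and -0.22 in WT.

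Lithium was set against fluoxetine directly in HT mice, since both drugs share their vehicle libraries. Of 1132 genes that differed (6.79%), 587 were higher under lithium (3.52%) and 545 lower (3.27%). Without the 3 lithium libraries low in olfactory bulb markers 555 differed (3.33%). Pfkfb3 averaged 1194 ± 83.2 under lithium and 830.3 ± 95.5 under fluoxetine (SD, n = 10 each), a difference of 0.53 (SE 0.0613, adjusted p = 7.24e-08). Fam53b averaged 1253 ± 81.8 under lithium and 765 ± 116 under fluoxetine (0.72, adjusted p = 7.24e-08). On the lower side Gfpt2, an enzyme of hexosamine synthesis, averaged 183 ± 21.7 under lithium and 296 ± 43.9 under fluoxetine (-0.68, adjusted p = 6.53e-09). The microglial purine receptor P2ry13 averaged 237 ± 25.5 under lithium and 384 ± 65.1 under fluoxetine (-0.68, adjusted p = 3.05e-08), and Sox9 averaged 439.8 ± 62.3 under lithium and 672 ± 53.5 under fluoxetine (-0.62, adjusted p = 9.63e-08).

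Of the glucocorticoid genes, 7 of 24 were higher under lithium than under fluoxetine, and 4 without the 3 lithium libraries. Set against the same vehicle libraries, the differences were 1.49 for lithium and 1.06 for fluoxetine in Hif3a, 1.93 and 1.69 in Plin4, 0.94 and 0.68 in Sult1a1, 1.18 and 0.42 in Map3k6, 0.82 and 0.27 in Zbtb16, 0.71 and 0.36 in Fkbp5, and 0.52 and 0.17 in Tsc22d3, with lithium named first in each pair. Ctnnb1 was lower under lithium than under fluoxetine (-0.27, adjusted p = 2.48e-06), as was Top2a (-1.07, adjusted p = 0.000285), with 8 of the 31 cell cycle genes, and 4 were lower without the 3 lithium libraries. Of 26 oligodendrocyte and myelin markers 16 were lower under lithium than under fluoxetine, but 3 were without those libraries. Each of these leave-outs kept the fluoxetine libraries that were low in bulb markers. In the cholesterol and sterol lists limma called no difference between the drugs, with 3 and 2 genes at an unadjusted p under 0.05.

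The sexes gave no difference that passed: limma called 0 genes (0%), with 669 at an unadjusted p under 0.05 (4.01%), and edgeR and DESeq2 called none. Predicted genes aside, the smallest p belonged to Mid1, an X-linked ubiquitin ligase at the pseudoautosomal boundary, with a lithium difference of -0.74 in females and 0.69 in males (adjusted p = 0.94). That the 30 leading genes had one sign in both sexes follows from how they were chosen.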

How the data were processed

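The deposited table holds 18088 genes, named by Ensembl ID, for 58 libraries. Its signal values, as the authors deposited them, are gene-level reads scaled by a size factor: within a tolerance of 0.01, 100% of a library's nonzero values were whole multiples of its own step. Per the submitters' processing notes the tools were Salmon 0.11.2, R 3.6.0 and DESeq2 1.19.11, with build GRCm38; the annotation release is not given in the sources used here. Whole reads were recovered for 54 libraries. In HT lithium male 3 and HT vehicle female 2, male 1 and male 5 the step lay too close to 1 to decide. A TruSeq Stranded mRNA kit was used, per the labels' protocols.

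limma 3.58.1 (R 4.3.3) with a variance trend was fitted to log2(value + 1) of the 16669 genes with a mean of at least 10 over all 58 libraries; 1419 genes were left out. There was 1 coefficient per genotype, treatment and sex, and contrasts took the mean of females and males. p values were adjusted over all genes by Benjamini and Hochberg's method, with a threshold of 0.05; SE are those of the fit. A count test had been foreseen for raw counts and was used only as an alternative, with edgeR 4.0.16 and DESeq2 1.42.0 on recovered reads. The fit was tested on simulated data. The members and lists were chosen with earlier results of these data known. No set test was run: lists are described by counts and medians beside those of all genes. Named are Kmt5b, the 15 higher and 15 lower genes with the smallest p and one sign in both sexes, the 5 largest each way with a mean of at least 50, 4 each way in the other contrasts and up to 5 members per list; not all are described, and some are not reported here. Genes outside this rule are marked, except the list members Nr3c1, Sgk1, Per1, Mt1, Tcf7l1, Slc17a7 and Gad1, which are outside it too. Symbols and positions came from the supplied GRCm38 annotation (18077 IDs matched, 11 did not), and promoter windows from RefSeq.

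Depth was 23.5 to 38.6 M reads, with a median of 27.6 M. Alternatives were quantile and TMM scaling, other filters, pseudocounts and samples in the fit, no trend, covariates for olfactory bulb and striatal marker levels and exon length slope, a replicate block and leaving out each library. The pair of covariates together, leaving out sets of libraries, and the fit on 54 libraries were chosen after seeing the data.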

Additional observations from a re-analysis of the deposited data

Results flagged for a closer look

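In 288 sets of 10 libraries, 1 per described value and group, the highest or lowest library was compared with the rest by the gap rule of Dixon, which chance meets in about 5% of sets. It was met 16 times. In HT lithium, Ahcy was highest in female 3 at 786.3 normalised counts, Phf8, a histone demethylase gene, was lowest in male 3 at 867.4, and the exon length slope was lowest in male 3 at -0.02548. In HT vehicle female 1, Etnppl stood highest at 573.7 and Fosb at 911.3. In HT vehicle female 2, a library of low exon length slope, Pnck stood highest at 1960 and Fdps at 1571. In HT vehicle male 2, Ppp1r21 was lowest at 1737, Atp5a1 at 19280 and Aldoa at 29960, and Srebf1 was highest at 972.9. In HT vehicle male 3, the inositol transporter gene Slc2a13 was highest at 4026, Homer1 at 8252 and Sox9 at 750.7, while Klf4 was lowest at 146.5 and Bbc3 at 170.7. No cause was tested.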

How the results depend on the processing

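Against 2345 genes that passed for lithium in HT, quantile normalisation, TMM scaling, no trend, other filters or pseudocounts, the fit on the compared groups and the olfactory bulb or striatal covariate gave 2242 to 3186, the slope covariate gave 1687, and leaving out each library gave 1644 to 2691. The count was 894 without the 4 HT vehicle libraries of lowest exon length slope, 1061 by limma on 54 libraries, and 1074 by edgeR and 1257 by DESeq2 on their reads, of which 1049 and 1210 had passed before. These 54 hold 7 of the 10 HT vehicle libraries; the cause of the lower counts was not tested. For lithium against fluoxetine (1132), the count was 1857 with the olfactory bulb covariate, 2217 with the slope added, 555 without the 3 HT lithium libraries low in bulb markers, 609 without all 10 such libraries of the series, and 757 to 1327 leaving out each library. For lithium in WT (556), it was 229 on the compared groups alone, 1105 with both covariates, 310 without all libraries low in bulb markers, and 272 to 771 leaving out each library, with 272 without WT lithium female 4, 347 without male 3 and 357 without male 4. For the difference between genotypes (0), it was 1 on the compared groups, and 0 to 37 leaving out each library, with 31 without WT lithium female 1 and 37 without female 2. For the difference between sexes (0), it was 1 on the compared groups and 0 leaving out each library. Differences that did not pass changed sign in Kmt5b (-0.0398 with the slope covariate, -0.0171 without the 4 libraries) and in Gsk3b and Cbx5 (-0.0062 each with both covariates). Of 123 named genes that passed, 70 passed under every alternative, and none changed sign. Libraries of the same replicate number did not deviate together (correlations from -0.211 to 0.151 over 10 pairs, 1 HT lithium library correlating best with its own number). The number was therefore not taken as a pairing, though these correlations cannot exclude one. With the number as a block, 2159 genes passed in HT, 411 in WT, 1066 between drugs and 0 for genotype and sex. What depth limits was not tested.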

Other observations

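The genes named here were chosen after their values were seen. The 6 higher insulin, IGF and FOXO response genes in HT lithium included Pik3r1, the regulatory subunit of PI3 kinase (0.18, adjusted p = 0.000602), the sestrin Sesn1 (0.18, adjusted p = 0.00263), Klf15, a further gene that glucocorticoids induce (0.29, adjusted p = 0.00145), and Igfbp3, which binds insulin-like growth factors (0.32, adjusted p = 0.00415). The lower ones included Igfbp2 (-0.32, adjusted p = 0.00999) and Akt1 (-0.11, adjusted p = 0.0142), neither of which passed without the 4 HT vehicle libraries of lowest exon length slope.

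Of 23 NRF2 and antioxidant genes, 3 were higher and 5 lower (34.8%, against 14.1% of all genes), and without the 4 vehicle libraries 3 were higher and no lower one was left: the mitochondrial superoxide dismutase Sod2 was higher (0.12, adjusted p = 0.00757) and the cytosolic Sod1 lower (-0.18, adjusted p = 0.00322). Of 24 interferon and antigen presentation genes 4 were lower (16.7%, against 14.1% of all genes) and 20 did not pass, with a median of -0.10. In each leave-out, of the 3 HT lithium or the 4 vehicle libraries, 2 were lower. Without the 4 vehicle libraries 1 was also higher. Of 31 monoamine genes 2 were higher and 1 lower (9.68%, against 14.1% of all genes), with 1 and 1 in each leave-out. The lower one was the serotonin receptor gene Htr3a (-0.33, adjusted p = 0.00176). Maob, an enzyme that breaks down monoamines, was among the higher ones (0.21, adjusted p = 0.00633). Dnajc3, a co-chaperone of the endoplasmic reticulum, was higher in both genotypes, by 0.24 in HT (adjusted p = 0.000351) and by 0.29 in WT (adjusted p = 0.00013).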
